A study of Bombyx mori with 3 samples.

Results

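The silk gland (SG) of the silkworm *Bombyx mori* carries a small set of transcription factors that are tied to its growth and to its silk protein genes, and 5 of them were followed here: *sage*, *SGF1*, *SGF3*, *dimm*, and *Awh*. They were taken by name, as 5 of the 16880 annotated features, and each matched 1 feature. Their UMIs were set against the 4 fibroin features (*FIBH*, *FIBH-2*, *Fib-l*, and *P25*) and the 5 sericin features (*Ser1*, *Ser2*, and 3 rows of *Ser3*) in the same cells. The libraries came from whole SGs of the Nistari strain at 8 days after egg laying (E8D, the embryo with a formed gland), on day 1 of the first larval instar (1L1D), and at the larval molt that ends this instar (1LM). Each stage was 1 droplet library of dissociated cells from about 2000 pooled glands, and no group carried a treatment or a mutation. With 1 library per stage no test between stages was possible, and every interval below covers counting error only. A ratio is called a difference where it reached 2-fold and its 95% interval left out 0 on the log2 scale.

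The SG is a tube with 3 regions: the posterior silk gland (PSG) makes the fibroins of the silk fiber, the middle silk gland (MSG) makes the sericins that glue it, and the anterior silk gland (ASG) is the spinning duct. *sage* encodes a basic helix-loop-helix factor, and *SGF1* is the silkworm *fork head* gene. The pair is known from the Drosophila salivary gland, where both factors act together on secretory genes, and SGF1 binds promoters of fibroin and sericin genes in the silkworm. *dimm* encodes another basic helix-loop-helix factor, named for its Drosophila relative in secretory neurons, and *Awh* encodes a LIM-homeodomain factor. Both have been linked to fibroin gene activation in the silkworm. *SGF3* encodes a POU-domain factor that is known for binding the *Ser1* promoter.

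After removal of barcodes with a deviant ratio of UMIs to genes or with many mitochondrial UMIs, 4880 cells at E8D, 4339 at 1L1D, and 7125 at 1LM were kept. Their median depth was 738, 1845, and 1465 UMIs, and the libraries shared 7 to 8 barcodes per pair of stages among kept cells. *FIBH* UMIs were found in 4337 of the 4339 kept cells at 1L1D and in 7125 of 7125 at 1LM. Whether they came from RNA free in the cell suspension (free RNA below) or from expression in all these cells was not tested. The genes of muscle, fat body, and blood cells that could be matched stayed at or below 1.37 CPM in every library, other than *PPO2* with 2.04, 9.06, and 16.0 CPM at E8D, 1L1D, and 1LM. The neuron gene *Elav* had 23.6, 18.4, and 28.4 CPM in the same order. The part of these cells in the results was not tested.

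*sage* and *SGF1* were the members with the most UMIs, and both were lowest at 1L1D. *sage* had 366 CPM (counts per 1000000 UMIs; 95% interval 352 to 381) at E8D, 189 (182 to 195) at 1L1D, and 468 (456 to 480) at 1LM. *SGF1* had 137 CPM (129 to 146) at E8D, 58.5 (55.1 to 62.1) at 1L1D, and 449 (437 to 460) at 1LM. None of these intervals overlapped within a gene. UMIs counted near the 3′ end depend on how far each gene model reaches, so levels are compared within a gene and not between genes.

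The other 3 members were sparse and were highest at 1LM. *dimm* had 14.2 CPM (11.6 to 17.4) at E8D, 14.8 (13.1 to 16.6) at 1L1D, and 78.2 (73.5 to 83.1) at 1LM. Over all kept cells E8D and 1L1D thus did not differ beyond counting error, unlike inside PSG-like cells (below). *Awh* had 7.12 CPM (5.27 to 9.42) at E8D, 3.83 (2.99 to 4.83) at 1L1D, and 18.6 (16.3 to 21.1) at 1LM. *SGF3* rested on 17, 53, and 66 UMIs, which gave 2.47 CPM (1.44 to 3.96) at E8D, 2.86 (2.14 to 3.74) at 1L1D, and 5.03 (3.89 to 6.40) at 1LM. At E8D its interval overlapped that of 1L1D and, narrowly, that of 1LM.

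**Figure D1:**
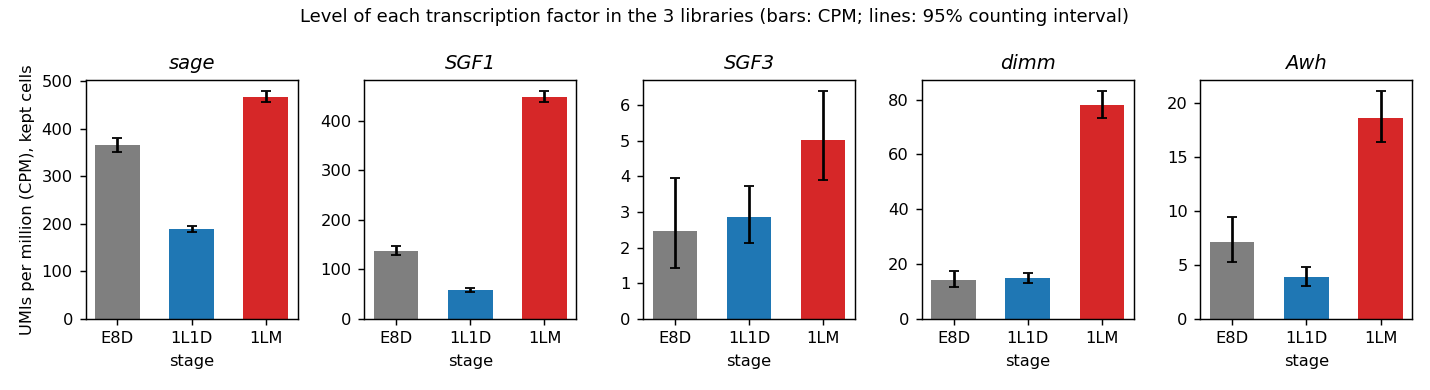
Level of *sage*, *SGF1*, *SGF3*, *dimm*, and *Awh* in kept cells, 1 panel per gene, with CPM on the y axis from 0 and the stages E8D, 1L1D, and 1LM on the x axis; bars are CPM of the 1 library per stage and lines are 95% Poisson intervals. *sage* and *SGF1* dip at 1L1D (189 and 58.5 CPM), while *dimm* stands at 78.2 CPM at 1LM.

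At 1L1D over E8D in all kept cells, *SGF1* was the member called lower, with a log2 ratio of -1.23 (-1.36 to -1.10), and no member was called higher. Over all features with a ratio, 19.8% were lower and 13.4% were higher by this rule. *sage* missed 2-fold with a log2 ratio of -0.96 (-1.03 to -0.88), and *Awh* had -0.90 (-1.44 to -0.34). This comparison moved with the makeup of the libraries. The TR-like cells described below held 34.4% of the kept UMIs at 1L1D, against 6.70% at E8D, and without them *SGF1* had a log2 ratio of -0.76 (-0.89 to -0.63) and no member was called. Under edgeR's TMM factors and DESeq2's size factors no member was called either.

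At 1LM over 1L1D, 4 of the 5 members were higher: *sage* (2.48-fold), *SGF1* (7.67-fold), *dimm* (5.29-fold), and *Awh* (4.86-fold). *SGF3* had a 1.76-fold ratio with a log2 interval of 0.27 to 1.37. No member was lower. The rule called 57.7% of all features higher and 4.98% lower, so the members' count stood near a background in which most features were higher. The median log2 ratio over all features was 1.27. Centred on it, *SGF1* kept a log2 difference of 1.67 (1.58 to 1.76), *dimm* of 1.13 (0.94 to 1.33), and *Awh* of 1.01 (0.62 to 1.41), whereas *sage* had 0.04 (-0.02 to 0.10) and *SGF3* -0.45 (-0.998 to 0.0956). *SGF1*, *dimm*, and *Awh* were thus higher than the typical feature at 1LM, and *sage* moved with it. Without TR-like cells *sage* had a log2 ratio of 0.81 (0.75 to 0.88) and was no longer called, and *SGF3* had 1.33 (0.64 to 2.07).

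At 1LM over E8D, *SGF1* (3.27-fold), *dimm* (5.49-fold), *Awh* (2.61-fold), and *SGF3* (2.04-fold) were higher and none was lower, against 44.9% of all features higher and 5.78% lower. The median log2 ratio of all features was 0.94 here, and after centring on it *dimm* alone was called, with 1.51 (1.21 to 1.83). *sage* had a log2 ratio of 0.35 (0.29 to 0.42) as counted and of -0.59 (-0.66 to -0.52) after centring, so its direction depended on the scale. *Eif-4a*, a translation factor gene taken as a control, had log2 ratios of 0.43, 0.16, and 0.59 for 1L1D over E8D, 1LM over 1L1D, and 1LM over E8D.

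In cells thinned to 1000 UMIs, a *sage* UMI was found in 29.1% of cells at E8D (26.8% to 31.5%), 18.7% at 1L1D (17.6% to 19.9%), and 34.9% at 1LM (33.6% to 36.1%). The shares for *SGF1* were 12.9%, 5.76%, and 34.7%. The *dimm* shares were 1.16%, 1.84%, and 7.53%, and those of *Awh* 0.547%, 0.530%, and 2.03%. *SGF3* UMIs were found in 0.479%, 0.230%, and 0.483% of thinned cells. Without thinning, *sage* UMIs were in 26.2%, 37.3%, and 45.9% of cells and *SGF1* UMIs in 13.1%, 15.9%, and 49.2%, an order that follows depth between E8D and 1L1D and goes against the CPM. At most 1 or 2 UMIs of *SGF3*, and of *Awh*, were found in any kept cell, while single cells held up to 42 UMIs of *sage* and up to 17 of *SGF1*. Thinning left out 3418 cells at E8D, 0 at 1L1D, and 1743 at 1LM.

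To place the factors along the gland, cells of the 3 libraries were clustered jointly without the silk protein genes and without the 5 members. Of 14 clusters, 11 could be named from marker genes of the study's cell types, which group as PSG-like (the types FPS, DRR, and FPC), MSG-like (SPS, ERSS, and SPC), and ASG-like (LSF, ECR, CM, and TR). The study picked these markers on the same libraries, so the names are not independent of them. The silk genes took no part in the clustering or the naming. *FIBH* was 313 CPM in PSG-like cells and 48.7 CPM in the other kept cells at E8D, and *Ser1* was 145 CPM in MSG-like cells and 27.8 CPM in the other cells. PSG-like cells were 2273 at E8D, 1387 at 1L1D, and 4030 at 1LM, and MSG-like cells were 2118, 1114, and 952. Different clusters filled a class at different stages, since PSG-like cells were mostly FPS-like at E8D and 1L1D, while at 1LM they were 2519 DRR-like, 773 FPS-like, and 738 FPC-like cells. The ECR-like, CM-like, FPC-like, and DRR-like clusters came almost wholly from the 1LM library (2519 of 2574 DRR-like cells), as ERSS-like cells did from E8D (1864 of 1908), and such a cluster may be that library rather than a type.

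Most *Awh* UMIs of every stage lay in PSG-like cells. At E8D it had 13.9 CPM (43 UMIs) in PSG-like cells and 1.59 CPM (6 UMIs) in the other kept cells. At 1L1D it had 10.9 CPM (48 UMIs) in PSG-like cells and 1.63 CPM (23 UMIs) in the other cells, and at 1LM 34.1 CPM (217 UMIs) and 4.00 CPM (27 UMIs). The log2 ratios were 3.12 (1.89 to 4.65), 2.75 (2.004 to 3.53), and 3.09 (2.51 to 3.73), and their intervals overlapped across stages. Of the 23 UMIs outside the PSG-like class at 1L1D, 12 lay in an unnamed cluster of 53 cells with *FIBH* among its leading genes (14.9 CPM of *Awh*). The few *Awh* UMIs in MSG-like and ASG-like cells came at about or below the rate, per *FIBH* UMI, seen in PSG-like cells, and cannot be told apart from free RNA. At 1L1D there were 0.119 *Awh* UMIs per 1000 *FIBH* UMIs in PSG-like cells, 0.131 in MSG-like cells, and 0.0787 in ASG-like cells, and at 1LM 1.54, 0.593, and 0.787. Within the PSG-like class at 1LM the FPC-like cluster stood highest, with 83.8 CPM (69.4 to 100.4) for *Awh*, above FPS-like cells with 27.9 (21.2 to 36.1) and DRR-like cells with 14.2 (10.2 to 19.3).

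*dimm* was also higher in PSG-like cells at E8D and 1L1D. It had 44.2 CPM in PSG-like cells and 5.65 CPM in the other cells at 1L1D (log2 ratio 2.97, 2.58 to 3.36) and 21.6 CPM and 8.21 CPM at E8D (1.39, 0.76 to 2.06). Inside PSG-like cells *dimm* was thus higher at 1L1D than at E8D (log2 ratio 1.03, 0.62 to 1.46). In MSG-like and ASG-like cells its ratios for this pair were -0.451 and -0.455, with intervals that included 0. At 1LM it had 98.5 CPM in PSG-like cells and 59.0 CPM in the other cells (0.74, 0.56 to 0.92). In ASG-like cells *dimm* had 69.0 CPM at 1LM, against 3.07 CPM at 1L1D. FPC-like cells were highest again, with 144 CPM (125 to 165). Per 1000 *FIBH* UMIs, *dimm* had 0.479 UMIs in PSG-like, 0.561 in MSG-like, and 0.531 in ASG-like cells at 1L1D. At 1LM these values were 4.46, 12.5, and 11.2. The *dimm* UMIs outside PSG-like cells at 1L1D came at about the PSG-like rate and cannot be told apart from free RNA.

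*SGF3* had the opposite distribution at the first pair of stages. PSG-like cells held 1 of 17 UMIs at E8D and 2 of 53 at 1L1D, which gave log2 ratios over the other kept cells of -3.72 (-9.11 to -1.03) and -2.98 (-6.07 to -1.06). At 1L1D, 15 UMIs lay in MSG-like cells (3.48 CPM) and 36 in ASG-like cells (4.09 CPM), 29 of them in TR-like cells. At 1LM PSG-like cells held 24 of 66 UMIs (3.77 CPM in PSG-like cells and 6.22 CPM in the other cells), and 20 of these 24 were in DRR-like cells. Dropping DRR-like cells, a step added once these counts were known, gave a log2 ratio of -2.44 at 1LM. That step takes out most *SGF3* UMIs of the PSG-like class, so it cannot show whether *SGF3* was low there. FPC-like cells had 0.710 CPM and FPS-like cells 1.45 CPM, each from few UMIs.

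*sage* was highest in SPS-like cells of the MSG-like class among the named types at every stage. These cells had 779 CPM (720 to 842) at E8D, 476 (448 to 505) at 1L1D, and 829 (788 to 872) at 1LM, and their log2 ratios over the other kept cells were 1.33, 1.69, and 1.02. In FPS-like cells the level was 260 CPM (E8D), 257 CPM (1L1D), and 726 CPM (1LM). The TR-like cells, marked by the tracheal receptor gene *Btl* among others, were the lowest named type, with 28.2 CPM (15.01 to 48.2) at E8D and 40.4 (35.7 to 45.7) at 1L1D. Inside PSG-like cells *sage* did not differ beyond counting error between 1L1D and E8D, with 252 and 260 CPM, whereas in MSG-like cells it was 357 CPM at 1L1D and 547 CPM at E8D (log2 ratio -0.61, -0.72 to -0.51).

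*SGF1* was shared by PSG-like and MSG-like cells and was low in ASG-like cells before the molt. At E8D it had 130 CPM in PSG-like cells, 183 in MSG-like cells, and 19.96 in ASG-like cells. At 1L1D these values were 94, 106, and 9.65 CPM, and at 1LM 571, 496, and 229 CPM. The interval of PSG-like over MSG-like cells included 0 at 1L1D (-0.36 to 0.03), while at 1LM the log2 ratio was 0.20 (0.11 to 0.30) and at E8D -0.50 (-0.69 to -0.31). FPC-like cells had 845 CPM (798 to 895) and SPC-like cells 619 (566 to 676) at 1LM, the highest groups of their classes. In ASG-like cells *SGF1* was 23.7-fold higher at 1LM than at 1L1D, but the clusters behind the name differed, being mostly ECR-like at 1LM and LSF-like and TR-like at 1L1D.

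**Figure D2:**
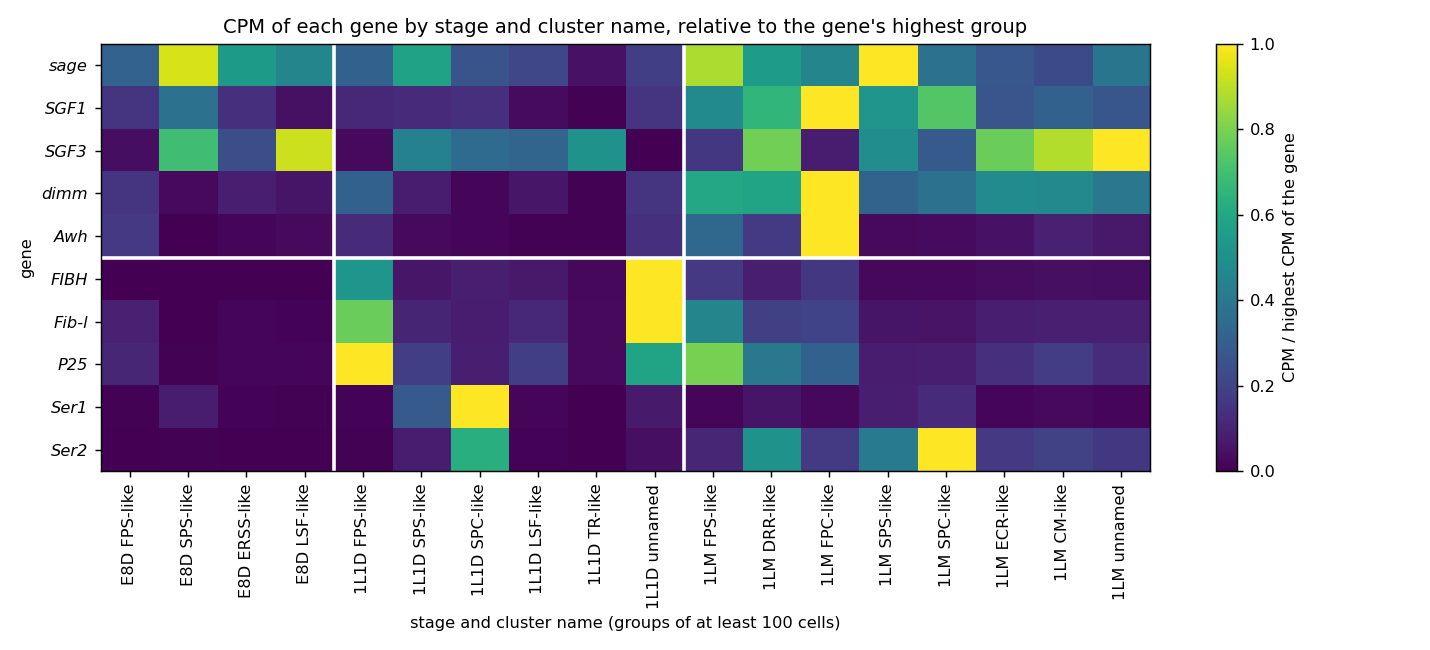
CPM of the 5 transcription factors (upper rows) and of *FIBH*, *Fib-l*, *P25*, *Ser1*, and *Ser2* (lower rows) in each stage and cluster name with at least 100 cells, each gene divided by its highest group (color scale 0 to 1, no error shown). *Awh* and *dimm* are brightest in FPC-like cells at 1LM, and *sage* in SPS-like cells, where it had 829 CPM; the *SGF3* row rests on few UMIs.

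Counted over members, PSG-like cells against the other kept cells gave 2 members higher (*dimm* and *Awh*) and 1 lower (*SGF3*) at E8D, beside 4.17% of all features higher and 17.3% lower. The same 3 members were called at 1L1D, beside 3.18% higher and 23.8% lower. At 1LM *Awh* alone was higher and none was lower, beside 4.09% higher and 14.7% lower. The number of cells that received a PSG name depended on the clustering, and ranged over the 5 other clusterings from 298 to 2804 cells at E8D, 0 to 1299 at 1L1D, and 3068 to 4096 at 1LM. At 1L1D the other clusterings gave 0, 176, 429, 465, and 1299 PSG-like cells, all fewer than the 1387 used here. *Awh* was called higher under each of the clusterings that named PSG-like cells, with log2 ratios of at least 1.62 at E8D, 2.09 at 1L1D, and 1.71 at 1LM. *dimm* and *SGF3* lost their calls at E8D with coarser clusters (log2 ratios 0.80 and -0.59) and at 1L1D with silk genes and members left in the clustering (0.79 and -0.27).

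**Figure D3:**
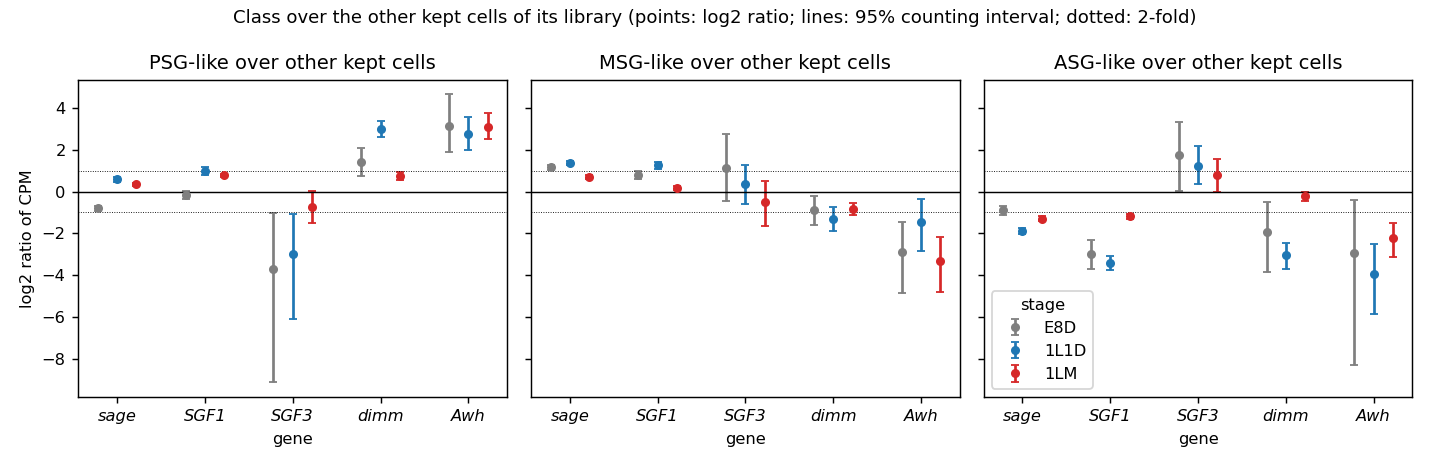
Log2 ratio of CPM in PSG-like, MSG-like, and ASG-like cells over the other kept cells of the same library (1 panel per class), for each member and stage; points are ratios, lines are 95% exact binomial intervals, and dotted lines mark 2-fold. The 3 *Awh* points of PSG-like cells lie between 2.75 and 3.12, and *SGF3* lies below 0 there at E8D and 1L1D.

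Shares of PSG-like cells with a UMI were set beside those of the TR-like and LSF-like cells of the duct. At 1L1D, after thinning to 1000 UMIs, *SGF1* UMIs were found in 7.79% of 1387 PSG-like cells and in 0.345% of 580 TR-like cells, *dimm* UMIs in 3.6% and 0.172%, and *sage* UMIs in 20.4% and 2.59%. *Awh* UMIs were found in 1.30% of PSG-like cells and in 0 of 580 thinned TR-like cells, which allows a share of up to 0.517% by 3 counts and of 0.634% by the Clopper-Pearson limit. Median depth before thinning was 1805 UMIs in PSG-like cells and 9406.5 in TR-like cells, so a like amount of free RNA weighs less in TR-like cells. LSF-like cells, with a median of 1499 UMIs, had higher shares: 13.9% for *sage*, 2.85% for *SGF1*, and 1.16% for *dimm*, with *Awh* in 0 of 1121 cells. At 1LM, ASG-like cells, mostly of other clusters, had shares of 18.7% for *sage*, 20.4% for *SGF1*, and 7.12% for *dimm*. PSG-like cells at 1LM had 40.0%, 43.8%, and 9.21%, and MSG-like cells had 4.56% for *dimm*. How much of these shares is free RNA was not tested. *SGF3* UMIs at 1L1D were found in 1 of 1387 PSG-like cells (0.0721%) and in 3 of 580 TR-like cells (0.517%). The intervals of these shares overlapped, and the shares cannot be told apart at such counts.

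The members were next set against silk RNA in the same cells. The kept cells of each library were put in 5 equal groups by the share of their UMIs from fibroin genes, and member UMIs were counted per 1000000 UMIs of all other genes. *Awh* was higher in the highest than in the lowest fibroin group in each library, with 17.7 and 3.09 per 1000000 at E8D, 13.1 and 0.215 at 1L1D, and 51.1 and 2.38 at 1LM. *dimm* had the same order, with 24.2 and 8.50 per 1000000 at E8D, 45.0 and 1.07 at 1L1D, and 116 and 55.9 at 1LM. The log2 ratios of highest over lowest group were 2.52 (1.00 to 4.49), 5.94 (3.99 to 9.03), and 4.42 (3.51 to 5.51) for *Awh*, and 1.51, 5.39, and 1.05 for *dimm*. The 1LM value of *dimm* was 0.93 without the 5% of cells with the most UMIs. At E8D 2993 of 4880 kept cells held a fibroin UMI. The lowest group there was cut by barcode order from tied cells without one. *Awh* had 3.09 per 1000000 (4 UMIs) in it and 0.570 (1 UMI) in the next group, whose median fibroin share was also 0.

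*sage* and *SGF1* did not follow fibroin in 1 direction. At E8D *sage* had 253 per 1000000 in the highest and 466 in the lowest fibroin group (log2 ratio -0.88, -1.07 to -0.70), while at 1L1D it had 250 and 150 (0.74) and at 1LM 640 and 452 (0.50). *SGF1* had 118 and 153 per 1000000 at E8D, 134 and 35.6 at 1L1D, and 589 and 341 at 1LM. *SGF3* was lower where fibroin was high at 1L1D, with 1 UMI in the highest group and 41 in the lowest. These groups differ in cell type: the lowest fibroin group at 1L1D was 54.6% TR-like cells with a median of 8536.5 UMIs, and the highest was 76.9% PSG-like cells with a median of 2470 UMIs. Across all kept cells the correlations of member level with fibroin share were weak, with a Spearman coefficient of at most 0.201 (*dimm*, 4339 cells at 1L1D).

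To leave out differences between gland regions, the grouping was repeated inside PSG-like cells, a step added after the data were seen. At 1LM *Awh* still had 49.8 per 1000000 in the highest and 7.88 in the lowest fibroin group of PSG-like cells (log2 ratio 2.66, 1.62 to 3.91). At E8D it had 21.4 and 5.34 per 1000000 (17 and 2 UMIs), and at 1L1D 11.6 and 4.88 (10 and 3 UMIs), with intervals that included 0. *dimm* had 58.1 and 26.0 per 1000000 at 1L1D (log2 ratio 1.16, 0.32 to 2.07) and 118 and 74.8 at 1LM (0.66, 0.28 to 1.06). *SGF1* had 99.4 per 1000000 in the highest and 163 in the lowest fibroin group of PSG-like cells at E8D (log2 ratio -0.71, -1.21 to -0.20). It did not differ beyond counting error at 1L1D and 1LM, with 109 and 92.7 per 1000000 and 570 and 587 per 1000000 in the highest and lowest groups. *sage* had 238 and 345 per 1000000 at 1L1D (-0.53, -0.82 to -0.25) and 673 and 488 at 1LM (0.46, 0.31 to 0.62). The highest group was deeper than the lowest, with median depths of 2740 and 1467 UMIs at 1L1D and 2117.5 and 1102 at 1LM, and the part of depth was not tested. PSG-like cells at 1LM also join clusters that differed in *Awh*, with FPC-like cells highest. The makeup of these fibroin groups by cluster was not counted, and its part was not tested.

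Grouped by sericin share, all kept cells at 1L1D had *SGF1* higher in the highest than in the lowest group, with 113 and 45.4 per 1000000 (2.49-fold, an interval without 0). *dimm* was lower there, with 7.85 and 20.8 per 1000000 (-1.41, -2.12 to -0.74), and so was *Awh*, with 3 and 19 UMIs (-2.71, -5.11 to -0.94). At 1LM *Awh* was lower, with 10.04 and 25.1 per 1000000 (-1.32, -2.10 to -0.61), and at E8D no member was called. With cells split at the median sericin share none of these was called, and with all deposited barcodes *SGF1* had a log2 ratio of 0.95 and lost its call. The share of all features called between sericin groups was not computed. The lowest group at 1L1D held no sericin UMI and was cut by barcode order from the tied cells. At E8D only 337 of 4880 kept cells held a sericin UMI, so even the highest group had a median sericin share of 0. The E8D groups were thus ordered mostly by barcode and hardly compare high with low sericin. PSG-like cells were 8.77% of the highest and 39.7% of the lowest sericin group at 1L1D. At 1LM they were 76.2% of the highest and 47.0% of the lowest group, and MSG-like cells were 19.9% and 6.95%. *Ser2* gave 118589 of the 121177 sericin UMIs at 1LM and was found in 7101 of 7125 kept cells. The highest sericin group at 1LM was thus mostly PSG-like.

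The grouping by sericin share inside MSG-like cells was also added after the data were seen. In both larval libraries *sage* was lower there where sericin was high. It had 218 per 1000000 in the highest and 582 in the lowest sericin group at 1L1D (log2 ratio -1.42, -1.65 to -1.18) and 405 and 861 at 1LM (-1.09, -1.32 to -0.86). At E8D it had 619 and 606 per 1000000 and did not differ beyond counting error. *SGF1* went the other way by less than 2-fold, with 230 and 152 per 1000000 at E8D (0.60, 0.21 to 1.00), 112 and 81.3 at 1L1D (0.47, -0.04 to 1.01), and 596 and 437 at 1LM (0.45, 0.21 to 0.69). SPC-like cells, in which *Ser1* and *Ser2* were highest, had 215 CPM of *sage* at 1L1D and 314 at 1LM, against 476 and 829 CPM in SPS-like cells. Median depth in the highest and lowest sericin groups was 2346 and 1401 UMIs at 1L1D, and 2767 and 2843 at 1LM. *SGF3*, the factor linked to *Ser1*, had 4 UMIs or fewer in any of these highest or lowest groups. At E8D the 4 lower groups held no cell with a sericin UMI and were ordered by barcode, and the highest group also held cells without one (median sericin share 0.0104%), so the E8D values hardly compare high with low sericin.

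**Figure D4:**
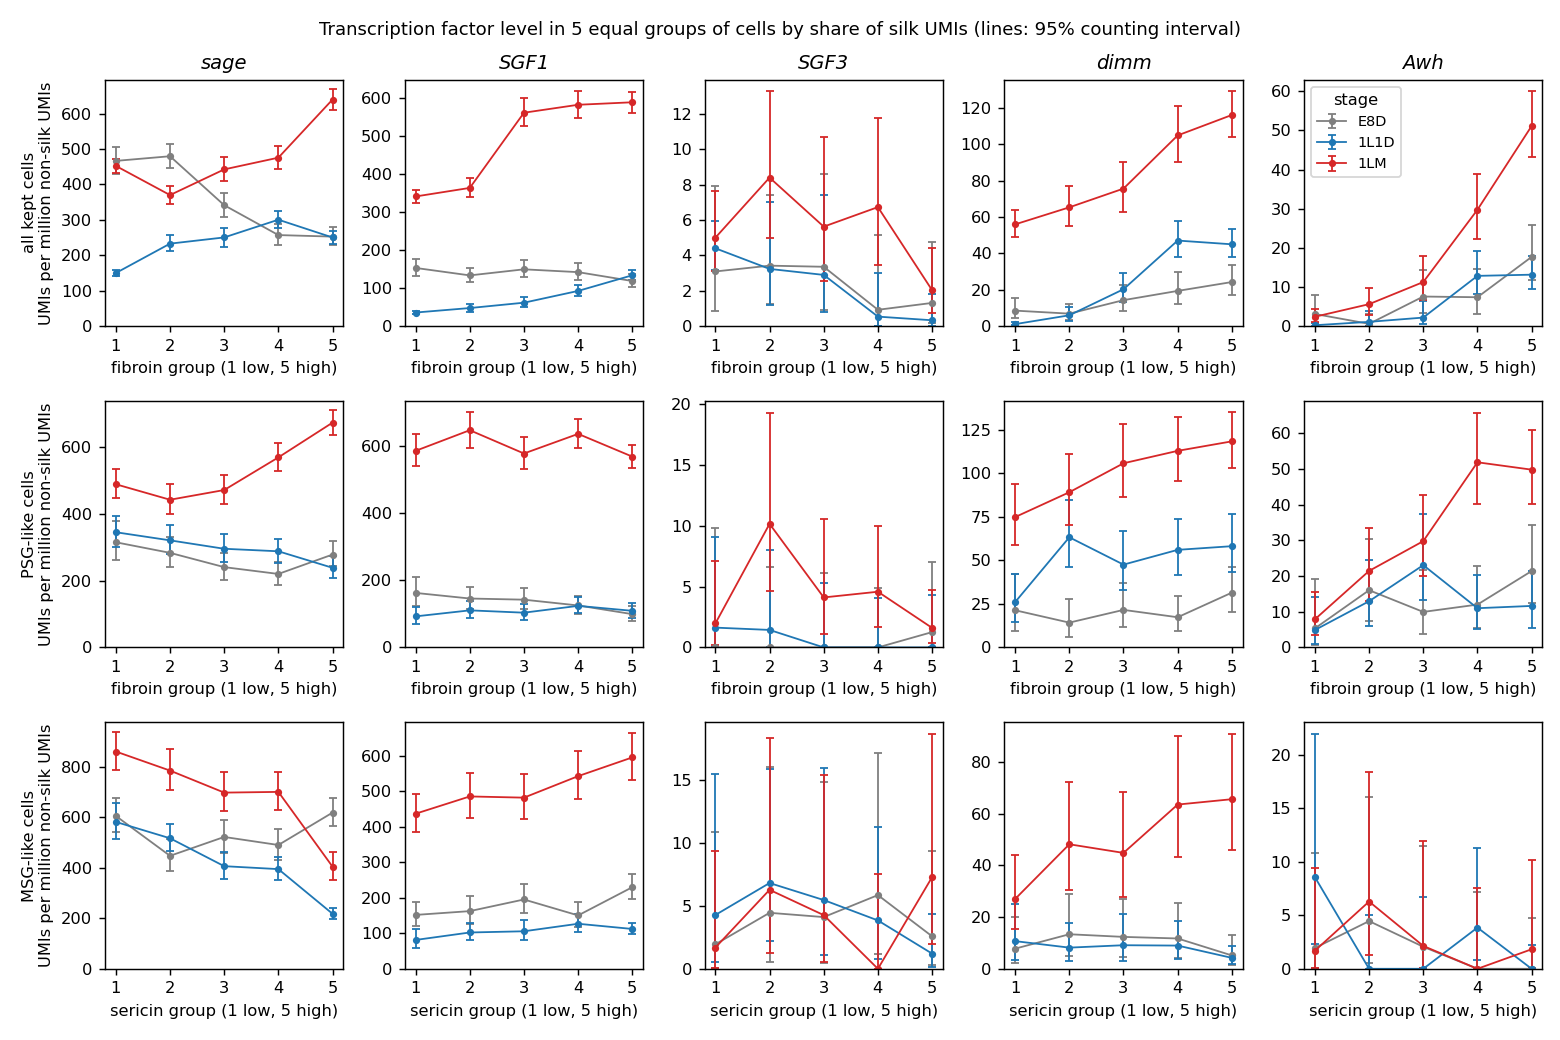
UMIs of each member per 1000000 non-silk UMIs (y axis from 0) in 5 equal groups of cells ordered by silk share (x axis, 1 lowest to 5 highest): all kept cells by fibroin (top), PSG-like cells by fibroin (middle), and MSG-like cells by sericin (bottom); colors are stages and lines are 95% Poisson intervals. *Awh* climbs with fibroin at 1LM to 51.1 per 1000000, and *sage* declines with sericin in MSG-like cells at 1L1D and 1LM.

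Joint detection of members in single cells was counted after thinning and is set beside the product of their shares. *sage* and *SGF1* met in 61 thinned cells at E8D where the product of shares gives 54.8, in 55 cells at 1L1D (46.8), and in 700 cells at 1LM (651). *dimm* and *Awh* met in 14 cells at 1LM (8.20), in 4 cells at 1L1D (0.424), and in none at E8D. At 1L1D they met in 1 cell each at 500 UMIs (0.119) and at 2000 UMIs (0.582), so this count is too small to read. *SGF3* and *Awh* were not found together in any of 1462, 4339, and 5382 thinned cells, where 0.038, 0.053, and 0.527 would be given, so a lack of shared cells was not detectable at this depth.

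Levels over the 23 groups of cluster and stage with at least 50 cells were taken as log2(CPM + 10). The level of *SGF1* went along with that of *dimm* (Pearson 0.78 and Spearman 0.76) and of *sage* (0.76 and 0.56). *Awh* and *dimm* had 0.68 and 0.73, while *SGF3* had -0.23 and -0.18 with *Awh*. These groups share 3 libraries, so the coefficients are descriptions without a test. *SGF3* had 136 UMIs in all and at most 5.03 CPM in a library, under the added 10. Its coefficients and its closest features therefore rest on values near the floor. Outside PSG-like cells *Awh* also lay mostly under the added 10. Among 7811 features with at least 100 UMIs, those most like each member were LOC101740812, LOC101740948, and LOC101736681 for *sage* (Pearson 0.811 to 0.845), LOC101741851, LOC101746630, and LOC101737902 for *SGF1* (0.932 to 0.936), LOC101741584, LOC101739831, and LOC101743954 for *SGF3* (0.779 to 0.788), LOC101738086, LOC101745284, and LOC101742153 for *dimm* (0.895 to 0.914), and LOC101735990, LOC101740372, and LOC101738629 for *Awh* (0.875 to 0.911).

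Of 18 other regulators listed for the SG, 17 matched a feature, and POU-M2 matched none of its own because the reference table gives it as a synonym of *SGF3*. At 1LM over 1L1D, 9 of the 14 with a ratio were higher and 0 lower, beside 57.7% of all features higher. At 1LM over E8D 6 of 14 were higher and 0 lower, beside 44.9% higher, and at 1L1D over E8D 2 of 12 were higher and 3 lower, beside 13.4% higher and 19.8% lower. These counts are all near the background. The Hox gene *Antp* had 0.436, 0.593, and 12.3 CPM at E8D, 1L1D, and 1LM, and *hth*, which encodes a Hox cofactor, had 3.05, 3.67, and 16.2 CPM. *Ldb*, which encodes a partner of LIM-homeodomain factors such as Awh, had 60.5, 23.5, and 41.6 CPM. It was called lower at 1L1D than at E8D (log2 ratio -1.37, -1.56 to -1.17), and the part of TR-like cells in this was not tested. *myc*, a growth regulator, had 153, 34.6, and 172 CPM, a course with the same dip at 1L1D as *sage* and *SGF1*. The Hox genes *Dfd*, *Scr*, and *Abd-b* had at most 1 UMI in any library.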

How the data were processed

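Single cells of dissociated SGs were measured by droplet 3′ RNA sequencing in 3 libraries, 1 per stage. The deposited tables hold whole UMI counts per gene and barcode, without normalization. Per the paper's methods and the submitters' processing notes, the authors made these counts with Cell Ranger 3.1.0 and STAR on the assembly ASM15162v1. The members and gene lists were chosen with earlier results of these data known. Named genes were the 5 members, the silk protein genes, a list of 18 other regulators, *Eif-4a*, and the 3 features most like each member.

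Following the study's stated filter, barcodes more than 2 SD from the mean ratio of UMIs to genes, or with over 30% of UMIs from 13 mitochondrial genes, were removed. Kept cells held 6878383, 18546139, and 13120838 UMIs at E8D, 1L1D, and 1LM. The kept cells were more than the study reports. No doublet caller was run; leaving out the 5% of cells with the most UMIs was an alternative. CPM have exact Poisson intervals, ratios exact binomial (Clopper-Pearson) intervals, and shares Clopper-Pearson intervals, all at 95%. Ratios with at most 3 UMIs on both sides were left out. For clustering, log-scaled counts per 10000 of 2000 variable genes gave 30 principal components, which were joined across libraries by mutual nearest neighbours (20 neighbours) and clustered by Leiden at resolution 0.8 (scanpy 1.11.5, leidenalg 0.10.2). A name needed a median log2 ratio of its markers of at least 1 and 3 detected markers. Alternative scales came from edgeR 4.0.16 and DESeq2 1.42.0. Clusters whose leading genes held more markers of another region stayed unnamed. The ratio rule was tested on simulated data. Reference names came from RefSeq (ASM3026992v2), whose coordinates were not used here.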

Additional observations from a re-analysis of the deposited data

Results flagged for a closer look

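The direction of *sage* in PSG-like cells differed between stages. Over the other kept cells its log2 ratio was -0.80 (E8D), 0.58 (1L1D), and 0.35 (1LM), with intervals that left out 0 on either side. The difference between stages was not tested, since each stage is 1 library. None of the values reached 2-fold. Without TR-like cells the 1L1D value was -0.12, and it was -0.11 with silk genes and members left in the clustering. The 1LM value was negative under 4 of the 5 other clusterings, between -0.23 and -0.10. Against MSG-like cells alone, *sage* was lower in PSG-like cells at each stage (-1.07, -0.50, and -0.35).

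The barcodes over the ratio limit, 196 at E8D, 370 at 1L1D, and 381 at 1LM, enter no comparison of kept cells. They enter only the alternative with all deposited barcodes and, in part, that with a limit of 3 SD on this ratio. They carried member UMIs and were deep, with median depths of 23112.5, 31081.5, and 8019 UMIs. At 1L1D they held 1345828 *FIBH* UMIs (109474 CPM), against 686998 (37043 CPM) in kept cells, so the comparison of members with fibroin lacks most *FIBH* UMIs of that library. In them *sage* had 385, 223, and 737 CPM at E8D, 1L1D, and 1LM, and *SGF1* 112, 73.8, and 299.6 CPM. *dimm* had 10.1, 12.3, and 34.2 CPM, and *Awh* 7.61, 4.72, and 8.41 CPM. *SGF3* had 1.27 CPM at E8D and 0.895 CPM at 1L1D, and 3 UMIs at 1LM. At 1LM *sage* was higher in these barcodes (737 CPM) than in kept cells (468 CPM), while *SGF1*, *dimm*, and *Awh* were lower in them.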

How the results depend on the processing

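No paired analysis was possible because each stage had 1 library. For 1L1D over E8D, where 1 member was called, the count was 0 with all deposited barcodes, TMM factors, DESeq2 size factors, or without TR-like cells, and 3 (*sage*, *SGF1*, and *Awh*) at a limit of 20% mitochondrial UMIs. For 1LM over E8D, where 4 were called, it was 1 (*dimm*) with TMM factors, DESeq2 size factors, or centring on the median of all features. The last setting, the removal of TR-like or DRR-like cells, and the means over cells in classes were chosen after seeing the data. For PSG-like over other kept cells, the count was 1 in place of 3 at E8D with Leiden resolution 0.4, and 2 in place of 1 at 1LM without DRR-like cells. Without batch correction no 1L1D cluster was named PSG-like, so that alternative gave no value there. For the fibroin groups at 1LM, 2 members became 1 with groups split at the median and without the 5% of cells with the most UMIs. For the sericin groups of all kept cells split at the median, 3 members at 1L1D and 1 at 1LM became 0. The share of all features called was not computed for fibroin or sericin groups, so these member counts have no background to be read against. No log2 ratio that was called changed its sign under any alternative run. The fibroin groups inside PSG-like cells and the sericin groups inside MSG-like cells were run under no alternative. Low counts limited *SGF3* and, outside PSG-like cells, *Awh*, for which most groups held fewer than 10 UMIs. How far the *SGF3* gene model reaches at its 3′ end was not checked, so an undercount of this gene was not tested.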
